A study of Mus musculus with 10 samples.

Results

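Alpha and beta tubulin genes and the gene of stathmin, a tubulin-binding protein, were followed across liver and liver tumours of mice with and without MLK3. The members were 9 genes chosen by name, Tuba1a, Tuba1b, Tuba1c, Tubb2a, Tubb2b, Tubb4b, Tubb5, Tubb6 and Stmn1, of 39056 genes in the deposited count table, and all 9 passed the filter on low counts. The 10 libraries came from 4 groups of male C57BL/6 mice aged 11 months: MLK3-KO liver tumours (3 mice, KO tumours), wild-type liver tumours (3 mice, WT tumours), MLK3-KO liver (2 mice, KO livers) and wild-type liver (2 mice, WT livers). Mice of both tumour groups had received the liver carcinogen DEN in a single intraperitoneal dose (5 µg per g of body weight) when they were 2 weeks old. From 1 week later they drank water with the tumour promoter PB at 0.05% until death, while control mice drank plain water. A tumour therefore differs from its control in carcinogen, promoter and tissue at once. MLK3, encoded by Map3k11, is a kinase that acts upstream of JNK; the labels describe the knockout as carried by the mouse and name no tissue-specific deletion. The labels call the treated samples tumour tissue, whereas the protocol speaks of treated livers, and the sources used here do not say how tumours were cut from the surrounding liver.

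Microtubules are hollow polymers of alpha and beta tubulin dimers. They carry organelles and secretory vesicles through hepatocytes and form the mitotic spindle of dividing cells. Each tubulin is encoded by several genes whose products, called isotypes, assemble together. Stathmin, the product of Stmn1, binds free tubulin dimers and promotes microtubule disassembly, and it is known as a transcript of proliferating cells. Tubulin mRNAs are autoregulated: when free tubulin is abundant, TTC5 recognises the start of a nascent tubulin chain on the ribosome and the mRNA being translated is degraded, as worked out in mammalian cell lines.

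That recognition depends on the first codons, so the first 30 coding bases of 8 members are shown, read from GENCODE M21 transcripts on GRCm38, with the first 12 bases in capitals. The alpha members lie on chromosome 15, Tubb2a and Tubb2b on chromosome 13, Tubb4b on chromosome 2, Tubb5 on chromosome 17 and Stmn1 on chromosome 4.
Tuba1a: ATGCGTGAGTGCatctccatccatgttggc
Tuba1b: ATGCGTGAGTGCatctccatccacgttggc
Tuba1c: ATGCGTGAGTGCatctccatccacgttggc
Tubb2a: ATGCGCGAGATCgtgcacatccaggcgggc
Tubb2b: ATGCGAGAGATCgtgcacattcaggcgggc
Tubb4b: ATGAGGGAGATCgtgcacctgcaggctggg
Tubb5: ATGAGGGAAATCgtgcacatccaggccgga
Stmn1: ATGGCATCTTCTgatattcaggtgaaagag
The 3 alpha members had the same 12 bases. The beta members differed from Tuba1b at 3 (Tubb2a, Tubb2b), 4 (Tubb4b) or 5 (Tubb5) of these 12 positions, and Stmn1, which is no tubulin, at 8. These are counts of bases, and some of the beta differences do not change the amino acid. The capitals encode Met-Arg-Glu-Cys in the alpha members and Met-Arg-Glu-Ile in all beta members shown. The base counts thus do not measure how the chain that TTC5 reads differs between isotypes.

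Over the whole coding sequence the alpha members were 97.1% to 98.3% identical to one another and Tubb2a and Tubb2b were 96.5% identical, while the other beta pairs were 80.2% to 84.5% identical. This likeness limits what a 3' tag can tell apart. Of the 351 stretches of 50 bases in the last 400 bases of each transcript, 43.9% for Tuba1a, 53.3% for Tuba1b and 59.3% for Tuba1c also occurred in another gene, mostly the processed pseudogene Gm17383, which held at most 2.09 CPM. The share was 31.9% for Tubb2a, mostly with Tubb2b, and 29.3% for Tubb4b, mostly with the gene Gm16165. Gm16165 averaged 5.72 CPM and reached 11.6 CPM. It had 184 and 43 counts in WT livers and 141 and 101 in KO livers. Tubb4b had 96 and 154 counts in WT livers and 136 and 60 in KO livers. The shared part was 0 for Tubb2b, Tubb5, Tubb6 and Stmn1. The counts of Tubb5 and Stmn1, which carry the main results, were thus not shared by this measure. The sources used here do not say how reads that match several genes were counted. The levels of the alpha members, Tubb2a and Tubb4b are uncertain to that extent. That of Tubb2b is uncertain as well, since 106 of the 351 Tubb2a stretches also occurred in Tubb2b.

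Library totals ran from 12408749 to 18081487 counts. Levels are given as CPM, counts per unit of library size after TMM scaling, and 3 counts correspond to 0.156 to 0.231 CPM per library; as reads carry no molecular identifiers, this limit covers counting error only. A QuantSeq library gives about 1 read per transcript near its 3' end, so a level depends little on transcript length. In bulk tissue, fewer cells of a type and less RNA per cell cannot be told apart. Alb, the albumin transcript of hepatocytes, was between 21400 and 62200 CPM in all 10 libraries. Map3k11 itself had 10, 10.3 and 5.84 CPM in KO tumours, 12.2, 9.54 and 14.3 CPM in WT tumours, 5.38 and 5.81 CPM in KO livers and 7.92 and 14.9 CPM in WT livers. The difference did not pass in tumours (log2 fold change -0.46, adjusted p = 0.77) or livers (-1.03, adjusted p = 0.72), and a 3' tag outside the deleted part, which the labels do not locate, cannot check the genotype.

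The library labelled KO tumour replicate 2 stood apart from both other KO tumours. The summed level of 9 liver tumour markers was 3120, 23.39 and 625.5 CPM in KO tumours 1, 2 and 3, against 1726 to 2232 CPM in WT tumours, 25.64 and 32.21 CPM in KO livers and 10.09 and 15.08 CPM in WT livers. Afp, the fetal albumin homologue that marks liver tumours, had 446, 3.84 and 169 CPM in KO tumours, 146 to 534 CPM in WT tumours, 0.283 and 6.35 CPM in KO livers and 3.02 and 3.47 CPM in WT livers. By the summed markers and by Afp, replicate 2 was at the level of a liver without tumour. Of the 9 markers, Golm1 was the 1 that was higher in every KO tumour, replicate 2 included, than in both KO livers. Of the 9 members, 5 (Tuba1a, Tuba1b, Tubb2a, Tubb2b and Tubb5) had their lowest value of all 10 libraries in replicate 2. The share of all genes with their lowest value there was not counted. Because of its marker levels, comparisons of KO with WT tumours are also given without replicate 2 for every member.

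Tubb5, the broadly expressed class I beta tubulin, and Stmn1 were the members whose levels separated most clearly: both were high in WT tumours and at liver level in KO tumours. Tubb5 (chromosome 17, 35833921 to 35838306, minus strand, GRCm38) had 150, 104 and 142 CPM in KO tumours, 224, 260 and 245 CPM in WT tumours, 132 and 161 CPM in KO livers and 150 and 107 CPM in WT livers. All 3 WT tumours lay above the other 7 libraries. Stmn1 (chromosome 4, 134468320 to 134473843, plus strand) had 10.2, 12.6 and 14.6 CPM in KO tumours, 49.1, 30.4 and 26.2 CPM in WT tumours, 13.2 and 15.2 CPM in KO livers and 12.8 and 18.1 CPM in WT livers. Again no library outside the WT tumours reached the lowest WT tumour. The same held for Tuba1b (112 to 128 CPM in WT tumours, at most 104 CPM elsewhere) and for Tubb6 (5.9 to 8.86 CPM, at most 4.16 CPM elsewhere).

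**Figure D1:**
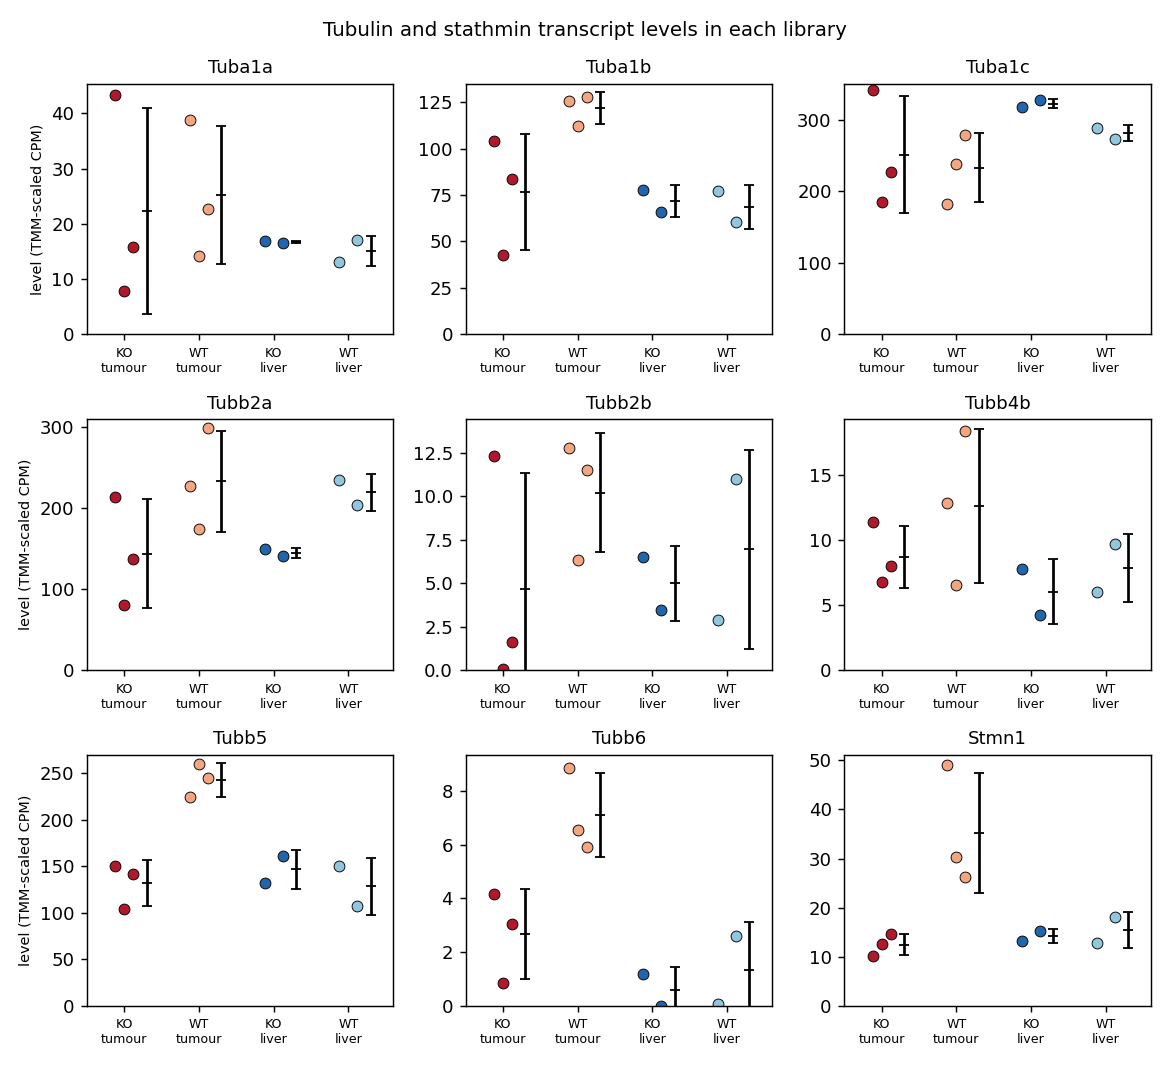
Level of each member (TMM-scaled CPM, linear axis from 0) in the 10 libraries, 1 point per mouse, by group; the bar beside the points is the mean ± SD, and bars that would pass below 0 (Tubb2b, Tubb6) end at the axis. Tubb5, Stmn1, Tuba1b and Tubb6 sit higher in the 3 WT tumours than in any other library. Tuba1c is the member with its highest mean outside the WT tumours, in KO livers.

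The first comparison asked what MLK3 loss changes within tumours, KO tumours against WT tumours. Tests were edgeR quasi-likelihood tests with p-values adjusted by Benjamini-Hochberg over all 15811 genes tested, and a gene with an adjusted p under 0.05 is said to rise or fall. Of the 9 members 2 fell, Stmn1 and Tubb5 (2 by DESeq2 and 4 at an unadjusted p under 0.05), and 0 rose (0 also at an unadjusted p under 0.05 and by DESeq2), where 1.27% of all genes tested fell and 3.25% rose. The median log2 fold change of the members was -0.70, against -0.03 over all genes tested. Without the library labelled KO tumour replicate 2 the median was -0.41 and 0 members passed.

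Stmn1 averaged 12.4 ± 2.2 CPM in KO tumours and 35.2 ± 12.2 CPM in WT tumours (SD, n = 3 each), a log2 fold change of -1.50 (SE 0.34, 95% interval -2.22 to -0.78, adjusted p = 0.017 by edgeR), or 2.83-fold lower. Tubb5 averaged 132 ± 24.8 CPM in KO tumours and 243 ± 17.9 CPM in WT tumours (SD, n = 3 each), a log2 fold change of -0.88 (SE 0.21, 95% interval -1.34 to -0.43, adjusted p = 0.027 by edgeR), or 1.84-fold lower. For both genes every KO tumour lay below every WT tumour, and DESeq2 called both too. Neither call held in every fit that left out a library. Without the library labelled KO tumour replicate 2 the fold changes were -1.51 for Stmn1 (adjusted p = 0.064) and -0.73 for Tubb5 (adjusted p = 0.1). Over all 10 such fits the adjusted p ran from 0.012 to 0.11 for Stmn1, which was called in 7, and from 0.021 to 0.11 for Tubb5, which was called in 5. The Stmn1 call was also lost without WT tumour 1 (-1.17) and without KO tumour 1 (-1.38), and the Tubb5 call without WT tumour 1, 2 or 3 or KO tumour 3 (-0.94 to -0.81).

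Tuba1b, a broadly expressed alpha isotype, had 104, 42.6 and 83.7 CPM in KO tumours and 126, 112 and 128 CPM in WT tumours. Its groups did not overlap, and its log2 fold change of -0.67 (95% interval -1.25 to -0.09) had an adjusted p of 0.24, with -0.38 without the library labelled KO tumour replicate 2. Tubb6, a beta tubulin with low levels in liver, had 4.16, 0.838 and 3.03 CPM in KO tumours and 8.86, 6.55 and 5.9 CPM in WT tumours. These groups did not overlap either (log2 fold change -1.41, adjusted p = 0.73, and -0.98 without KO tumour 2), though the values rest on 12 to 54 counts in KO tumours and 90 to 170 counts in WT tumours. Together 4 of the 9 members, Tuba1b, Tubb5, Tubb6 and Stmn1, were lower in every KO tumour than in every WT tumour, a pattern held by 10.9% of all genes tested.

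Tubb2a, a beta isotype abundant in these livers, had 214, 79.6 and 137 CPM in KO tumours and 227, 174 and 298 CPM in WT tumours. KO tumour 1 overlapped the WT tumours, and the log2 fold change of -0.70 (SE 0.30) had an adjusted p of 0.27. Leaving out a library moved it between -1.11 without KO tumour 1 (adjusted p = 0.045) and -0.41 without the library labelled KO tumour replicate 2 (adjusted p = 0.61). Its near copy Tubb2b had 12.3, 0.0698 and 1.59 CPM in KO tumours, resting on 160, 1 and 22 counts, and 12.8, 6.33 and 11.5 CPM in WT tumours. The 3 KO tumours thus spread over more than the range of the WT tumours (fold change -1.14 on the log2 scale, adjusted p = 0.73, and -0.56 without KO tumour 2). Tubb4b, a beta isotype found in cilia and other stable microtubules, had 11.4, 6.77 and 8 CPM in KO tumours and 12.9, 6.55 and 18.4 CPM in WT tumours (-0.53, adjusted p = 0.76, and -0.38 without KO tumour 2).

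In both other alpha isotypes the KO and WT tumours overlapped, and their difference from Tuba1b was not tested. Tuba1c had 342, 185 and 227 CPM in KO tumours and 182, 238 and 279 CPM in WT tumours, with overlapping groups (log2 fold change 0.11, 95% interval -0.40 to 0.62, adjusted p = 0.94, and 0.29 without KO tumour 2).

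Tuba1a, best known from neurons, had 43.4, 7.82 and 15.8 CPM in KO tumours and 38.8, 14.1 and 22.6 CPM in WT tumours. Its log2 fold change was -0.17 (SE 0.51, adjusted p = 0.95) and 0.23 without the library labelled KO tumour replicate 2.

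**Figure D2:**
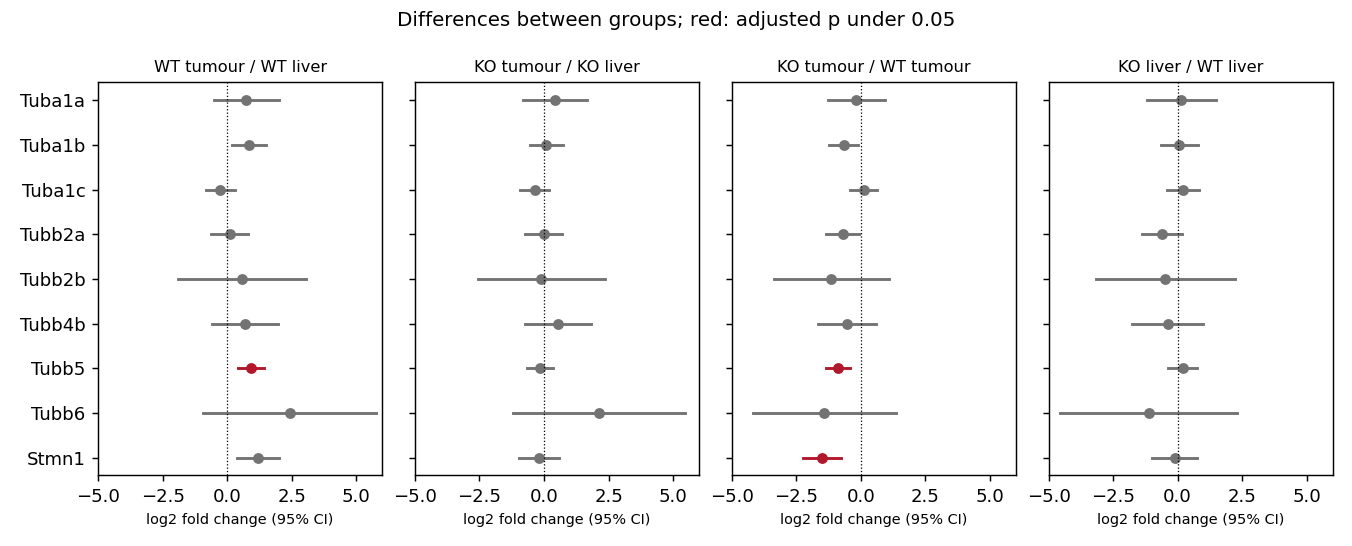
Log2 fold change of each member (point) with its 95% interval (line) in 4 comparisons from left to right, WT tumour over WT liver, KO tumour over KO liver, KO tumour over WT tumour and KO liver over WT liver; red marks an adjusted p under 0.05 (edgeR, all 15811 genes). Tubb5 is red in the WT tumour comparison and Tubb5 and Stmn1 in the comparison of tumours, while the intervals of Tubb2b and Tubb6 span several log2 units.

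The next comparison asked what distinguishes tumours from liver in mice with MLK3, WT tumours against WT livers. It shares the WT tumours with the comparison above, so its values are set beside those and not taken as independent of them. Of the 9 members 1, Tubb5, rose (2 by DESeq2 and 3 at an unadjusted p under 0.05) and 0 fell (0 also at an unadjusted p under 0.05 and by DESeq2), where 3.64% of all genes tested rose and 4.7% fell. Tubb5 averaged 243 ± 17.9 CPM in WT tumours (SD, n = 3) and 129 ± 30.6 CPM in WT livers (SD, n = 2), a log2 fold change of 0.92 (SE 0.24, 95% interval 0.40 to 1.44, adjusted p = 0.029 by edgeR), or 1.89-fold. The call was lost in 4 of the 10 fits that left out a library, namely without WT liver 2 (0.69, adjusted p = 0.26) or without WT tumour 1, 2 or 3 (adjusted p = 0.05 to 0.089).

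Stmn1 averaged 35.2 ± 12.2 CPM in WT tumours (SD, n = 3) and 15.5 ± 3.74 CPM in WT livers (SD, n = 2). The log2 fold change of 1.19 (95% interval 0.37 to 2.00) had an adjusted p of 0.072 by edgeR and 0.03 by DESeq2. Tuba1b averaged 122 ± 8.56 CPM in WT tumours (SD, n = 3) and 68.6 ± 11.8 CPM in WT livers (SD, n = 2), with a log2 fold change of 0.83 and an adjusted p of 0.13, or 0.028 in the fit without the library labelled KO tumour replicate 2. Of the 10 edgeR fits that left out a library, Stmn1 passed in 0 (adjusted p = 0.069 to 0.34) and Tuba1b in 1 (0.028 to 0.43). Tubb5, Tuba1b, Tubb6 and Stmn1 were higher in every WT tumour than in both WT livers, where 19.6% of all genes tested were.

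Tubb6 had 8.86, 6.55 and 5.9 CPM in WT tumours and 0.0628 and 2.59 CPM in WT livers, which rest on 1 and 41 counts. The log2 fold change of 2.42 had a 95% interval of -0.93 to 5.76 (adjusted p = 0.4). Tuba1c was the member with a negative fold change, -0.27 (adjusted p = 0.62), at 233 ± 48.8 CPM in WT tumours (SD, n = 3) and 281 ± 11.1 CPM in WT livers (SD, n = 2). Tubb2a had 227, 174 and 298 CPM in WT tumours and 235 and 203 CPM in WT livers, with overlapping groups (0.09, adjusted p = 0.93). For Tuba1a, Tubb2b and Tubb4b the fold changes were 0.56 to 0.74, with adjusted p-values of 0.5 to 0.86. The median over the 9 members was 0.74, against 0.09 over all genes tested.

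In mice without MLK3, KO tumours against KO livers, 0 of 9 members passed in either direction (0 at an unadjusted p under 0.05 and 0 by DESeq2), where 0.0759% of all genes tested rose and 0% fell. Tubb5 averaged 132 ± 24.8 CPM in KO tumours (SD, n = 3) and 146 ± 20.6 CPM in KO livers (SD, n = 2). Its log2 fold change was -0.15 (95% interval -0.66 to 0.35). Stmn1 averaged 12.4 ± 2.2 CPM in KO tumours (SD, n = 3) and 14.2 ± 1.42 CPM in KO livers (SD, n = 2), a log2 fold change of -0.19 (95% interval -0.98 to 0.60). Without the library labelled KO tumour replicate 2 the values were 0 for Tubb5 and -0.20 for Stmn1, and for Tuba1b 0.38 in place of 0.09. The median over the members was -0.01, and 0.38 without that library.

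Between livers, KO against WT, 0 of 9 members passed (0 at an unadjusted p under 0.05 and 0 by DESeq2), where 0% of all genes tested rose and 0.00632%, a single gene, fell. The log2 fold change was 0.19 for Tubb5, -0.12 for Stmn1 and 0.07 for Tuba1b. Tubb2a had 149 and 140 CPM in KO livers and 235 and 203 CPM in WT livers, so its groups did not overlap here (-0.60, SE 0.36, adjusted p = 0.72), as for 15.5% of all genes tested in this direction. Tuba1c did not overlap in the other direction, also held by 15.5% of all genes (0.20, adjusted p = 0.96). With KO and WT compared over livers and tumours alike, a comparison added after the data were seen, Tubb2a had a log2 fold change of -0.65 (95% interval -1.15 to -0.15) and an adjusted p of 0.25. In that comparison 0 members passed by edgeR or DESeq2 (2 at an unadjusted p under 0.05, Tubb2a and Stmn1), where 1.16% of all genes tested rose and 0.285% fell.

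Whether the tumour difference depended on genotype was tested as an interaction, the tumour over liver difference in KO mice minus that in WT mice. Of the 9 members 0 passed by edgeR and 0 by DESeq2, and 2 had an unadjusted p under 0.05, where 1.22% of all genes tested were called higher and 0.367% lower. Those 2 were Tubb5, with an interaction of -1.07 (SE 0.34, 95% interval -1.79 to -0.35, adjusted p = 0.16), and Stmn1, with -1.38 (SE 0.53, 95% interval -2.50 to -0.26, adjusted p = 0.28). Without the library labelled KO tumour replicate 2 they were -0.92 and -1.39. For Tuba1b it was -0.74 (adjusted p = 0.52). A dependence of the tumour difference on MLK3 is thus not shown for any member at the threshold used. Averaged over both genotypes, tumours against livers gave 0 calls of 9 by edgeR and by DESeq2 (1 at an unadjusted p under 0.05, Tubb5), where 4.86% of all genes rose and 4.33% fell.

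The order of the group means was led by WT tumours for 8 of 9 members, all but Tuba1c. The share of all genes with WT tumours first was not counted. For some members the lead lay within the spread. Tuba1a averaged 25.1 ± 12.5 CPM in WT tumours and 22.3 ± 18.7 CPM in KO tumours (SD, n = 3 each). Tubb2a averaged 233 ± 62 CPM in WT tumours (SD, n = 3) and 219 ± 22.3 CPM in WT livers (SD, n = 2). For Tubb5 the order was WT tumours (243 CPM), KO livers (146 CPM), KO tumours (132 CPM) and WT livers (129 CPM), and for Stmn1 WT tumours (35.2 CPM), WT livers (15.5 CPM), KO livers (14.2 CPM) and KO tumours (12.4 CPM). In both genes the last 3 groups lay within their spread of each other. For Tuba1c the order was KO livers (323 CPM), WT livers (281 CPM), KO tumours (251 CPM) and WT tumours (233 CPM), and its tumour libraries overlapped both livers.

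The summed level of the 8 tubulins was 425.8 to 880.2 CPM in KO tumours, 817.8 to 1008 CPM in WT tumours, 708.9 and 718.5 CPM in KO livers and 683.3 and 772.4 CPM in WT livers, so KO tumours reached from the lowest sum of the study into the range of WT tumours. The beta members summed to 291.2 ± 100 CPM in KO tumours and 505.5 ± 65.2 CPM in WT tumours, and the alpha members to 350.3 ± 129 CPM in KO tumours and 380.5 ± 43.7 CPM in WT tumours (SD, n = 3 each). The beta sum in WT tumours was also above the 302.6 ± 8.84 CPM of KO livers and the 363.4 ± 42.8 CPM of WT livers (SD, n = 2 each).

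As a share of the tags of the 8 tubulins, Tuba1c made up 39.7% ± 3.4 in KO tumours, 26.2% ± 3.8 in WT tumours (SD, n = 3 each), 45.2% ± 0.49 in KO livers and 38.7% ± 1.8 in WT livers (SD, n = 2 each). It was 36.8% to 43.4% in single KO tumours and 21.9% to 29.2% in single WT tumours, with no overlap. Tubb5 made up 21.4% ± 3.9 in KO tumours, 27.6% ± 3.8 in WT tumours, 20.5% ± 2.7 in KO livers and 17.5% ± 2.7 in WT livers. Here KO tumours overlapped WT tumours, since KO tumour 2 and WT tumour 3 both stood at 24.3%. These shares sum to 100%, so a higher share of some isotypes requires a lower share of others, and no test was made on them.

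**Figure D3:**
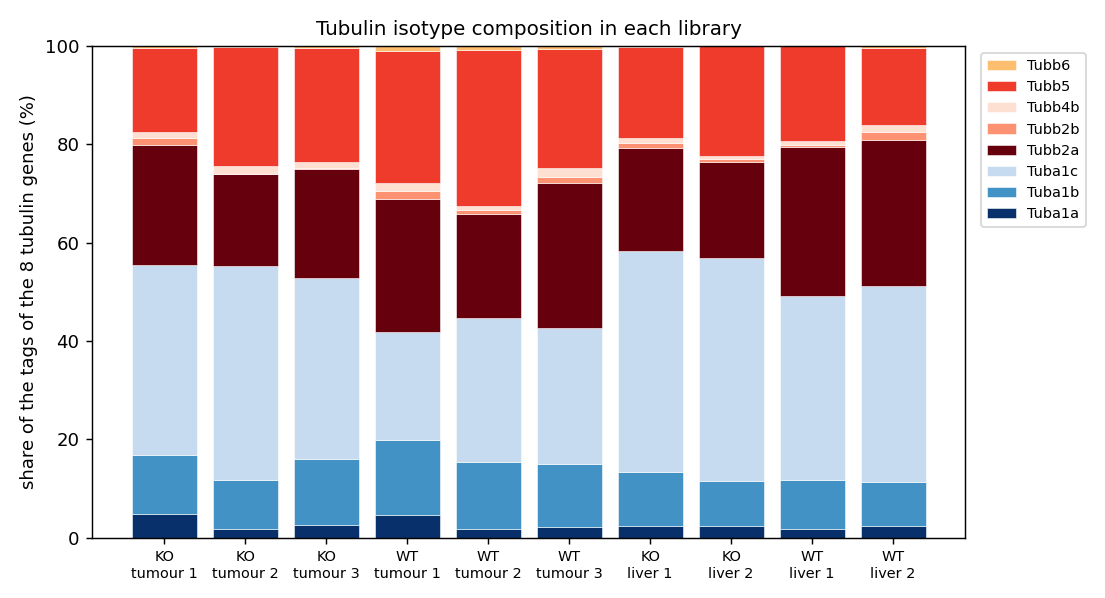
Share of each isotype (%) in the tags of the 8 tubulin genes, 1 bar per library, alpha isotypes in blue and beta isotypes in red to orange. The pale blue Tuba1c band spans 21.9% to 29.2% in the 3 WT tumours and 36.8% to 45.5% in the other 7 libraries.

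Across the 10 libraries, on the log2 CPM scale, Tubb5 correlated with Tuba1b at r = 0.87 and with Stmn1 at r = 0.74, Tubb2a with Tubb2b at r = 0.85, and Tuba1c with Stmn1 at r = -0.52. These values are descriptive: the libraries share group and depth differences, and Tubb2a and Tubb2b share sequence. Among 7209 other genes with a mean of at least 10 CPM, the profiles most like that of Stmn1 were those of Reln (r = 0.952), Fads2 and Nrg4 (0.929 each), Gys2 (0.924) and Serpind1 (0.904). Those most like the mean of the 8 tubulins were Lmna (r = 0.905), Myo1c (0.904), Tpt1-ps6 (0.897), Egr1 and Mex3c (0.896 each).

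Tubb5 and Tuba1b, the pair of members with the highest correlation, were compared in their promoters. The 250 bases before each start were taken from RefSeq on GRCm38.p6, which gave a promoter for 6 of the 9 members, and are printed 5' to 3' on the gene's strand, with matches to CCAAT on either strand in capitals. The Tubb5 window is chr17:35838302-35838551 (minus strand) and the Tuba1b window chr15:98934391-98934640 (minus strand).
Tubb5: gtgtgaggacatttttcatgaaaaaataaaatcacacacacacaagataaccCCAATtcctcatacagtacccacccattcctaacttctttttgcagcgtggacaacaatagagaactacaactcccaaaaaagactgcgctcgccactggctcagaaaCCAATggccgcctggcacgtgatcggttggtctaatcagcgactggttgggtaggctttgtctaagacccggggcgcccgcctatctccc
Tuba1b: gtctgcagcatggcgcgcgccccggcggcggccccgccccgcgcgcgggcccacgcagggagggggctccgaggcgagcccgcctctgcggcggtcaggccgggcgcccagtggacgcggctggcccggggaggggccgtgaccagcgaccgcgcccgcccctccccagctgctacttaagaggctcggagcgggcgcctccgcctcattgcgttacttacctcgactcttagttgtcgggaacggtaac
CCAAT, whose box is bound by NF-Y, was found 2 times for Tubb5 and 0 times for Tuba1b, so these letters are not what the pair shared. It was found 5 times for Tubb4b and 1 time each for Tuba1a and Tuba1c, and not for Tubb2a. Of the 32851 promoters of the table, 33.8% held it at least 1 time, 10.1% at least 2 times and 0.213% at least 5 times. TGANTCA, the AP-1 site of JUN-FOS dimers that JNK acts on, was found in none of the 6 and in 6.7% of all promoters; CACGTG, an E-box, was found in Tubb5 and in 6.0% of all promoters. A match is a match of letters and not a binding site, and its absence says only that these letters are not in this window.

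Of 12 other tubulin genes 7 were tested. By edgeR 1 fell and 0 rose in WT tumours against WT livers, where 4.7% of all genes tested fell. At an unadjusted p under 0.05, 0 were higher, and by DESeq2 0. The one that fell was Tuba4a, an alpha isotype without the usual terminal tyrosine codon, which had 86, 69.8 and 110 CPM in WT tumours and 192 and 195 CPM in WT livers (fold change -1.13 on the log2 scale with an SE of 0.23, adjusted p = 0.0053). In KO tumours it had 147, 123 and 142 CPM, between both of these ranges, and its difference from WT tumours was 0.63 (adjusted p = 0.12). Tubg1, the gamma tubulin that nucleates microtubules at centrosomes, had 45.4, 49.9 and 44.1 CPM in KO tumours and 17.3, 36.8 and 23.2 CPM in WT tumours (0.85, adjusted p = 0.12), against 46.7 and 66.1 CPM in KO livers and 43.2 and 54 CPM in WT livers. Both genes had their 3 lowest values in the WT tumours, where Tubb5 had its 3 highest. Tuba3a, Tuba3b, Tubal3 and Tubb1 had no counts in any library, and Tuba8, Tubb3, Tubb4a, Tubg2, Tubd1 and Tube1 stayed at or below 5.32 CPM. The other stathmins, Stmn2, Stmn3 and Stmn4, which are mainly neuronal, stayed at or below 3.26 CPM.

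Genes that act on tubulin were read in the same comparisons. Of 21 folding genes (the CCT chaperonin, prefoldin and tubulin cofactors) 1 fell in WT tumours against WT livers and 0 rose (edgeR; 1 higher at an unadjusted p under 0.05 and 1 by DESeq2), with a median log2 fold change of 0, where 4.7% of all genes tested fell. Tcp1, a CCT subunit, was the one that fell, with 48, 43.5 and 37 CPM in WT tumours and 82.9 and 88.3 CPM in WT livers (2-fold lower, adjusted p = 0.024). Of the 3 autoregulation genes Ttc5, Scaper and Cnot11 0 passed (0 at an unadjusted p under 0.05 and 0 by DESeq2), and Ttc5, the reader of nascent tubulin, was at or below 2.69 CPM in every library. Of 15 tubulin-modifying enzymes 0 passed by edgeR, while 1 rose and 1 fell both at an unadjusted p under 0.05 and by DESeq2. These were Ttl, the tubulin tyrosine ligase (1.85, adjusted p = 0.16 by edgeR), and Atat1, the alpha tubulin acetyltransferase (-1.33, adjusted p = 0.063 by edgeR). Between KO and WT tumours 0 of the folding, autoregulation or modifying genes passed by edgeR or DESeq2; at an unadjusted p under 0.05, 1 folding gene and 1 modifying gene were higher in KO tumours, Tcp1 (0.53) and Atat1 (1.17).

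Of 33 microtubule-associated proteins 2 fell and 0 rose by edgeR in WT tumours against WT livers, where 4.7% of all genes tested fell. At an unadjusted p under 0.05, 3 were higher, and by DESeq2 0. Map1lc3a, better known as the autophagy protein LC3A, fell to 39.4, 42.7 and 43.9 CPM in WT tumours, against 102 and 159 CPM in WT livers (log2 fold change -1.63, adjusted p = 0.00037). It was higher in KO tumours, at 69.4, 89.2 and 85.9 CPM, than in WT tumours (0.96, adjusted p = 0.016). It was the 1 gene of this list to pass there, where 3.25% of all genes tested rose. That call was lost without the library labelled KO tumour replicate 2, where 0 of 32 tested genes passed. Mtus1, a microtubule-associated tumour suppressor, fell as well in WT tumours (-1.28, adjusted p = 0.0037). Of 21 motor genes, Kif5c, a kinesin heavy chain, rose (5.14, adjusted p = 0.012) and Dynll2, a dynein light chain, fell (-1.04, adjusted p = 0.0056). Of all genes tested 3.64% rose and 4.7% fell in this comparison, and the median log2 fold change of the motor genes was 0.02. In KO tumours against KO livers 1 of the 33 microtubule-associated proteins rose, where 0.0759% of all genes tested did. This was Cep170, a centrosomal microtubule binder, with 16, 4.4 and 9.95 CPM in KO tumours and 0.286 and 0.212 CPM in KO livers (5.29, adjusted p = 0.027 by edgeR). The KO livers lay near the level of 3 counts there, 0.172 and 0.212 CPM, and the higher WT liver levels are given under Other observations. Over livers and tumours alike, the comparison added after the data were seen, Cep170 was lower in KO mice (-2.55, adjusted p = 0.018 by edgeR). Of all genes tested 0.285% fell in that comparison.

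Tubulins and stathmin are used by dividing cells, so cell division genes were read beside them. Of 30 cell cycle genes 4 rose in WT tumours against WT livers by edgeR, where 3.64% of all genes tested rose. By DESeq2 14 were higher, and 14 at an unadjusted p under 0.05. None fell by either tool (0 at an unadjusted p under 0.05), and the median log2 fold change was 2.21. Ccnd1, cyclin D1, had 33.9, 10.5 and 35.1 CPM in KO tumours, 79.1, 63.5 and 69.8 CPM in WT tumours, 17.8 and 17.3 CPM in KO livers and 14.7 and 6.24 CPM in WT livers (2.76 for WT tumours over WT livers, adjusted p = 0.0023). Top2a, Cdk1 and Ccna2 rose with it. Of 34 mitotic spindle genes 4 rose by edgeR, Spc25, Tacc3, Incenp and Cenpe, against the same 3.64% of all genes tested. By DESeq2 13 were higher, and 16 at an unadjusted p under 0.05. None fell by either tool (0 at an unadjusted p under 0.05). Their median log2 fold change was 3.77, or 2.92 with 11 genes that had no counts in a group set to the bound that 3 counts per library allow and 1 such gene left out. Spc25, a kinetochore subunit, had 23, 17.4 and 42.2 CPM in WT tumours and 5.66 and 1.58 CPM in WT livers (2.92, adjusted p = 0.0048).

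Between KO and WT tumours 0 of the 30 cell cycle genes and 0 of the 34 spindle genes passed by edgeR. At an unadjusted p under 0.05, 2 cell cycle genes were lower and 0 higher, and 3 spindle genes were lower and 1 higher; DESeq2 called 1 cell cycle gene lower and 0 spindle genes. Without the library labelled KO tumour replicate 2 the counts by edgeR were 0 as well, and the median log2 fold change was -0.85 in place of -1.10 for cell cycle genes and -1.01 in place of -1.51 for spindle genes. Ccnd1 had a log2 fold change of -1.42 (adjusted p = 0.061 by edgeR, 0.024 by DESeq2). Every KO tumour lay below every WT tumour for 9 cell cycle genes and 13 spindle genes, against 10.9% of all genes tested. The summed cell cycle level was 118.4 to 218.3 CPM in KO tumours, 271.9 to 385.9 CPM in WT tumours, 123.7 and 154.8 CPM in KO livers and 104.4 and 106.3 CPM in WT livers. It was thus highest in the same 3 libraries as Tubb5 and Stmn1, and as Tuba1b and Tubb6. Within WT tumours Stmn1 was highest in replicate 1, as the summed level was, while Tubb5 was lowest there. KO tumours 1 and 3 had higher sums than any liver and Stmn1 levels of 10.2 and 14.6 CPM, inside or below the 12.8 to 18.1 CPM of livers. The part of cell division in the levels of Stmn1 and Tubb5 was not tested.

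**Figure D4:**
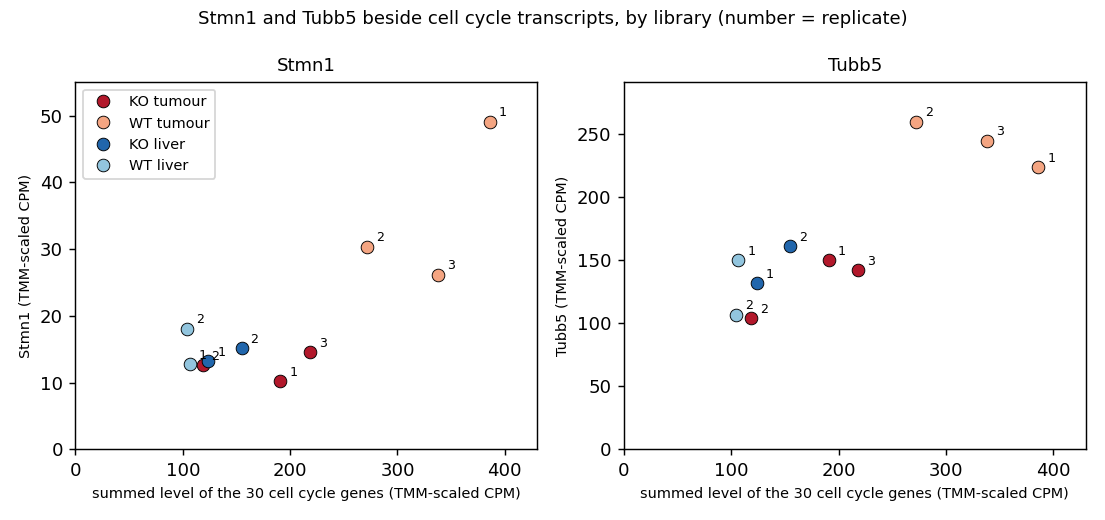
Level of Stmn1 (left) and Tubb5 (right) against the summed level of the 30 cell cycle genes, both in TMM-scaled CPM, 1 point per library labelled with its replicate number. The 3 WT tumours stand at the upper right of both panels, with sums of 271.9 to 385.9 CPM, and the other 7 libraries have sums of at most 218.3 CPM.

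Of 24 other cytoskeletal genes tested, mostly of actin filaments and keratins, 8 rose in WT tumours against WT livers and 16 did not pass (10 higher by DESeq2, 15 at an unadjusted p under 0.05). Of all genes tested 3.64% rose there. In KO tumours against WT tumours 5 fell and 19 did not pass (8 lower by DESeq2, 11 at an unadjusted p under 0.05), where 1.27% of all genes tested fell. No gene of the list passed in the opposite direction in either comparison (0 by DESeq2 and 0 at an unadjusted p under 0.05). Actn1, an actin crosslinker, had 109, 77.3 and 112 CPM in KO tumours, 215, 190 and 201 CPM in WT tumours, 76.9 and 96 CPM in KO livers and 60 and 52.3 CPM in WT livers. It fell in KO tumours against WT tumours (-1.03, adjusted p = 0.0078). Tagln2, an actin-binding calponin relative (-1.80, adjusted p = 0.0088), Krt18, a keratin of hepatocytes and bile ducts (-0.99, adjusted p = 0.0088), Myh9, a non-muscle myosin (-1.01, adjusted p = 0.043), and Krt8 fell too. Without the library labelled KO tumour replicate 2, 3 genes of the list fell. Actn1 and Krt18 also passed the interaction test, which no tubulin did.

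Markers of other cell types differed between the groups as well, and their part in the tubulin levels was not tested. Of 12 cholangiocyte markers 10 were tested and 0 lacked counts throughout. Their summed level was 61.5 to 291.6 CPM in KO tumours, 281.3 to 512.5 CPM in WT tumours, 70.54 and 85 CPM in KO livers and 98.27 and 127.6 CPM in WT livers. Sox9 was the 1 cholangiocyte marker to fall in KO tumours against WT tumours (-1.12, adjusted p = 0.0099 by edgeR). Of all genes tested 1.27% fell and 3.25% rose in that comparison. Stellate cell markers, 13 of 13 tested, summed to 345.4 to 583.2 CPM in KO tumours, 317.4 to 732.2 CPM in WT tumours, 378.5 and 430.5 CPM in KO livers and 440.9 and 500.3 CPM in WT livers. Of these 2 fell in KO tumours against WT tumours, Reln and Acta2, and without the library labelled KO tumour replicate 2 there were 0 lower and 1 higher. Reln, whose profile was the most like that of Stmn1, had 42.1, 33.4 and 48.6 CPM in KO tumours and 93.8, 73.8 and 72 CPM in WT tumours. Macrophage markers, 15 of 15 tested, summed to 595.2 to 959.4 CPM in KO tumours, 737.8 to 1177 CPM in WT tumours, 454.6 and 645.1 CPM in KO livers and 378.4 and 436.2 CPM in WT livers, where 1 marker was higher (Marco) and 1 lower (Gpnmb) in KO than in WT tumours. Hepatocyte markers, 18 of 18 tested, summed to 80820 to 98330 CPM in KO tumours, 142500 to 190200 CPM in WT tumours, 95960 and 97480 CPM in KO livers and 85800 and 96740 CPM in WT livers. The 3 WT tumours had the highest sums, but the list did not move one way. In WT tumours against WT livers 5 of its genes rose (Alb, Apoa1, Trf, Serpina1a and Ahsg, all of abundant plasma proteins) and 5 fell (Apoa2, Cps1, Pck1, Cyp3a11 and Cyp2e1), with a median log2 fold change of -0.27. Of all genes tested 3.64% rose and 4.7% fell there. In KO tumours against WT tumours the same 5 plasma protein genes fell and Cyp3a11 and Cyp2e1 rose, with a median of 0.06. RNA per cell and cell numbers behind these sums were not measured.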

How the data were processed

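RNA of 10 liver or liver tumour samples was profiled with a strand-specific QuantSeq 3' kit from 50 ng of RNA, per the labels' protocols. The authors deposited whole-number counts of reads per gene, not normalized; BWA, featureCounts and the mm10 build are named in the submitters' processing notes, without versions, annotation release, strand setting or treatment of multi-mapping reads. Symbols were matched to 38872 of 39056 identifiers. Of these genes 21045 had counts and 15811 passed filterByExpr. Counts were fitted in R 4.3.3 with edgeR 4.0.16: TMM scaling, a quasi-likelihood fit of the 4 groups over all 10 libraries (6 residual degrees of freedom), and Benjamini-Hochberg adjustment over all genes tested, threshold 0.05. The fit was tested on simulated data. The members, gene lists and tests were chosen with earlier results of these data known. All 9 members are named; from other lists up to 4 called genes with the smallest p are named, or the 2 smallest where none was called, and up to 3 for cell type markers; not every gene this allows is printed. The series' design text calls the samples of a group biological replicates. Replicate libraries differed by 39.8 to 94.9 chi-square per degree of freedom, more than counting error gives, so none was a re-count of the same library. This measure cannot show whether libraries came from different mice. Alternatives were DESeq2 1.42.0, RLE scaling, other filters, the compared groups alone, a replicate block and leaving out each library. Positions are GENCODE M21 on GRCm38; promoters are RefSeq. Library depths were 12408749 to 18081487 counts.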

Additional observations from a re-analysis of the deposited data

Results flagged for a closer look

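In 7 of the named genes, none of them a member, the tumour difference depended on genotype by the interaction test (edgeR, adjusted over all genes). Genes outside the members were named partly because they were called, in this test among others, so the 7 are not a share of any list. Of all genes tested 1.22% were called higher and 0.367% lower in the interaction. The tumour over liver difference in KO mice minus that in WT mice was negative on the log2 scale for the cytoskeletal genes Actn1 (-1.65) and Krt18 (-1.37) and for the plasma protein genes Alb (-1.43), Apoa1 (-1.79) and Ahsg (-1.75). It was positive for the cytochromes Cyp3a11 (2.42) and Cyp2e1 (3.78).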

How the results depend on the processing

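The members' calls sat close to the threshold. In WT tumours against WT livers 1 member rose, and this count was 2 by DESeq2, 2 with no filter on low counts, 2 with a mean of at least 5 CPM and 0 with a replicate block (Tubb5 0.90, adjusted p = 0.066); leaving out a library gave 0 to 2. The 2 members lower in KO than in WT tumours ranged from 0 to 2 when a library was left out and stayed at 2 with the replicate block. Averaged over genotypes, the 0 members higher in tumours became 0 to 1, and the 0 members lower in KO overall became 1 with no filter (Tubb2a). RLE scaling changed no member call, and no called value changed sign; the cause of these changes was not tested. Deviations from the group mean correlated at -0.074 to 0.104 for 13 same-number pairs and at -0.104 to 0.112 for 24 different-number pairs. With 2 livers per group, the deviations of the livers of a group mirror each other, which forces these ranges to be alike. They therefore cannot show whether replicate numbers pair samples. Counts over all genes also moved with tool and filter, given here as edgeR, DESeq2 and edgeR with no filter. Higher genes were 575, 1199 and 925 in WT tumours against WT livers, and 12, 348 and 342 in KO tumours against KO livers, where lower genes were 0, 35 and 44. In KO against WT tumours, 514, 776 and 746 were higher and 201, 351 and 435 lower. In KO against WT livers, 0, 64 and 39 were higher and 1, 87 and 72 lower. In the interaction, 193, 432 and 432 were higher and 58, 222 and 203 lower. Over both genotypes 769, 1345 and 1095 were higher in tumours (497 with the replicate block), and over both tissues 184, 402 and 400 were higher and 45, 229 and 260 lower in KO. In KO tumours against KO livers the 12 higher genes were 0 with these groups fitted alone and 3 to 189 when a library was left out, the 189 without the library labelled KO tumour replicate 2. With 2 livers per group, differences smaller than the intervals given were not detectable at this depth and number of mice.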

Other observations

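Actg1, the gene of gamma actin, had 0 counts in all 10 libraries, while the 24 other genes of the cytoskeleton list summed to between 3325 and 6292 CPM per library. Cep170 had 0.286 and 0.212 CPM in KO livers and 5.4 and 4.92 CPM in WT livers (log2 fold change -4.32, adjusted p = 0.22 by edgeR and 0.0017 by DESeq2). Spc25 and Incenp had higher levels in KO livers (13 and 19.6 CPM for Spc25, 15.4 and 3.97 CPM for Incenp) than in WT livers (5.66 and 1.58 CPM, and 0.0628 and 1.77 CPM), without a call.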
